A study of Drosophila melanogaster with 16 samples.

Results

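Secreted serine proteases of the fly midgut were followed across 16 Affymetrix arrays as a family of 27 genes, out of 11982 genes with a probe set of their own. Its members were taken by gene symbol and are 13 Jonah genes (Jon), 9 trypsins (Try), 4 Ser genes and yip7. The family itself was picked with earlier results of these data known. Each gene had 1 probe set, and none of the 27 had a second one to set beside it. By current RefSeq symbols the same naming takes in 33 genes. Of these, gammaTry, deltaTry, Jon99Cii, Jon99Ciii and Jon99Fii had no probe set under their own name and were not analysed here. SPH93 shared a probe set with another gene, so no SPH gene is among the members.

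Serine proteases of this type are made by enterocytes as inactive precursors, secreted into the gut lumen and activated by cleavage. They cut dietary protein with a catalytic histidine, aspartate and serine. Trypsins cut after arginine or lysine. The Jonah genes encode related endopeptidases of the larval and adult gut, most of them predicted to resemble chymotrypsin, and many lie in tandem clusters at the cytological position given in their names. The midgut epithelium that makes them is renewed by intestinal stem cells, in which the EGFR, Raf and MAPK cascade promotes division and Notch directs daughter cells to the enterocyte fate.

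Female flies gave the midguts, with 4 arrays for each of 4 genotypes. These were wild type (WT), overexpression of gain-of-function Raf kinase (RafGOF), RafGOF together with a dominant-negative form of Notch (RafGOF NotchDN), and RafGOF together with the Notch intracellular domain (RafGOF NotchIC). The sources used here do not give the driver of the transgenes, the age of the flies or the length of expression. The tissue was whole midgut, so the stem cells of the series title were measured together with enterocytes, enteroendocrine cells and visceral muscle. In such a bulk sample, fewer cells of a type and less RNA per cell cannot be told apart. Values are log2 RMA signals. Array medians lay between 5.48 and 5.70, and arrays of a group correlated at 0.979 to 0.995 across probe sets. The number of arrays limits the precision, and p-values measure the spread between these arrays, since nothing says whether they came from separate flies or crosses.

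Most of the family was bright in the wild-type midgut, with means there of 9.70 or above except for Ser12 (5.25) and Ser7 (5.56). The mean signal over all 16 arrays was at log2 6 or above for 25 of the 27 genes. The exceptions were Ser12, which ran from 4.51 to 5.54 over the 16 arrays, and Ser7, which ran from 5.17 to 6.15, both about at the median of the arrays. For 8 genes the wild-type mean was at log2 14 or above, close to the highest value of the arrays, which lay between 14.56 and 14.76. On wild-type array 1 alphaTry, at 14.69, was at the array top and betaTry at 14.68, and on arrays 2 to 4 betaTry was at the top. alphaTry lay 0.06 below the array top on average, Jon65Aiv 0.11, Jon65Aiii 0.16, Jon74E 0.24, yip7 0.27, epsilonTry 0.36 and Jon25Biii 0.37. These 8 genes therefore had almost no room to read higher, and a change of a transcript that stays above this limit cannot be seen.

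**Figure D1:**
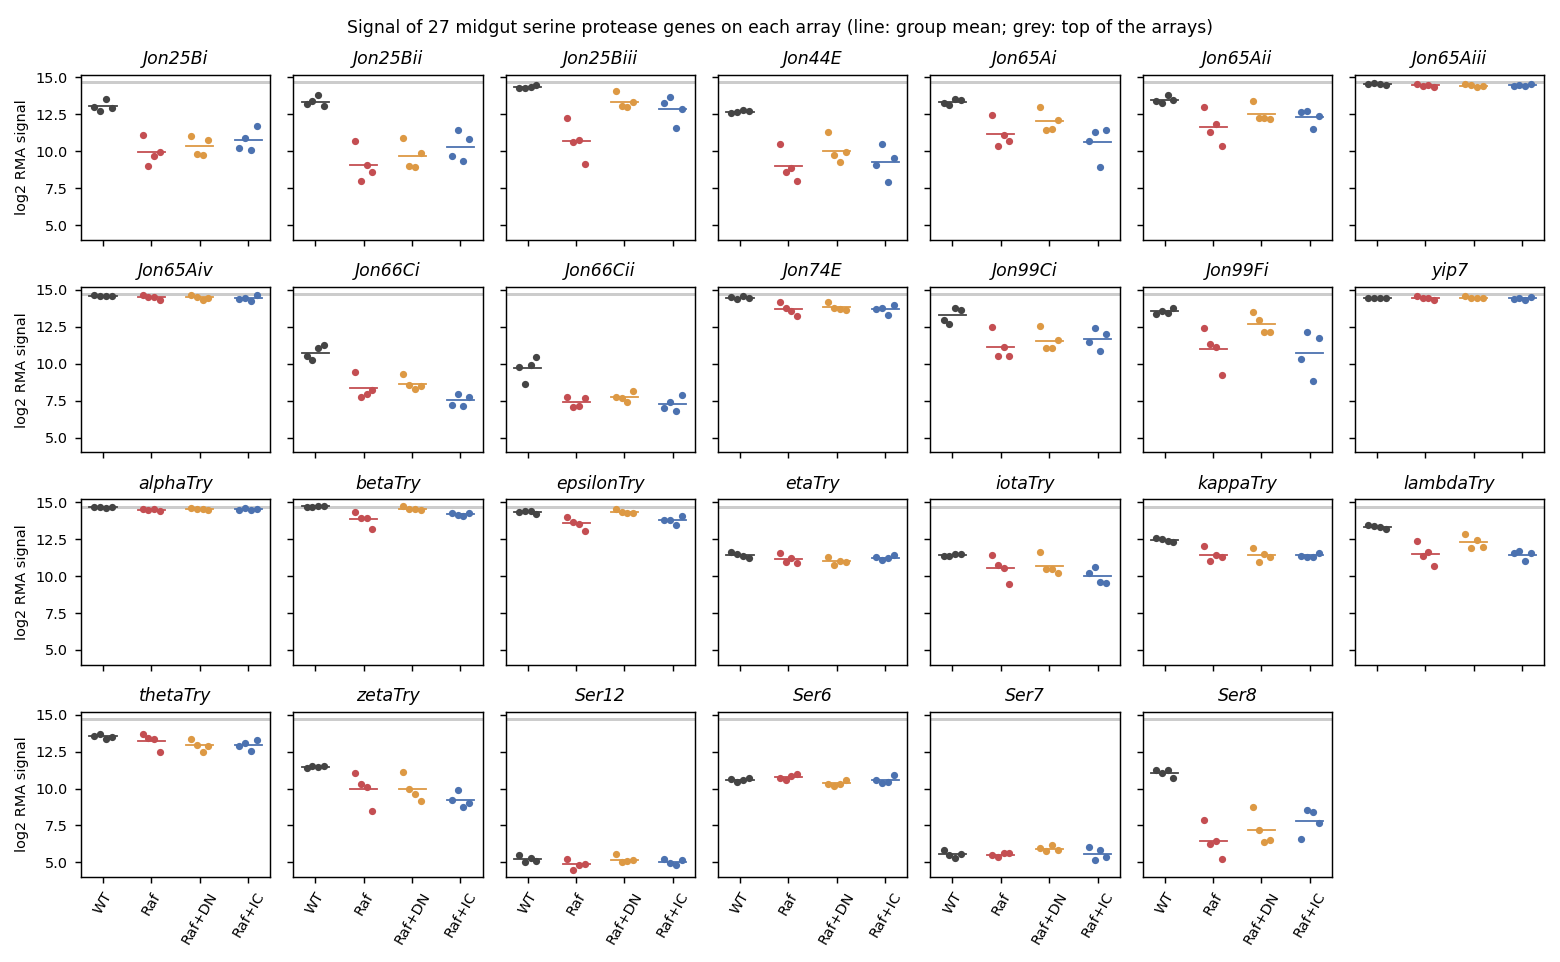
Signal (log2 RMA, vertical axis) of each of the 27 genes on every array, in panels by gene, with the 4 groups on the horizontal axis (Raf stands for RafGOF, Raf+DN for RafGOF NotchDN, Raf+IC for RafGOF NotchIC). Points are arrays 1 to 4 from left to right, short lines are group means and the grey band spans the highest value of each array. Most Jon genes and Ser8 drop from WT to RafGOF, while yip7, alphaTry, Jon65Aiii and Jon65Aiv stay by the grey band in all groups.

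The first comparison asked how protease expression differed with active Raf. Of the 27 genes, 17 fell and 0 rose by limma (20 lower and 0 higher at an unadjusted p under 0.05), while the other 10 missed the threshold. Among all 11982 genes 10.1% were lower by the same call and 14.9% higher, and among genes with a mean of log2 6 or above 14.4% were lower. The median change of the 27 genes was -1.0 (log2) and that of all genes 0.00. Of the 17 that fell, 13 fell by at least 2-fold, against 500 of all 11982 genes. Among the 6870 genes with a mean of log2 6 or above, 455 did so. In 18 of the 27 genes all 4 RafGOF arrays lay below all 4 wild-type arrays, against 10.7% of all genes. By name, 11 of 13 Jon genes, 5 of 9 trypsins, 1 of 4 Ser genes and not yip7 passed, with median changes of -2.30, -0.88, -0.21 and 0.01, and the difference between these groups was not tested. The groups also differ in brightness. Of the 8 genes with a wild-type mean of log2 14 or above, among them yip7 and 3 trypsins, 4 fell, with a median of -0.475. Of the other 19, among them Ser7 and Ser12 near the array medians, 13 fell, with a median of -1.86.

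**Figure D2:**
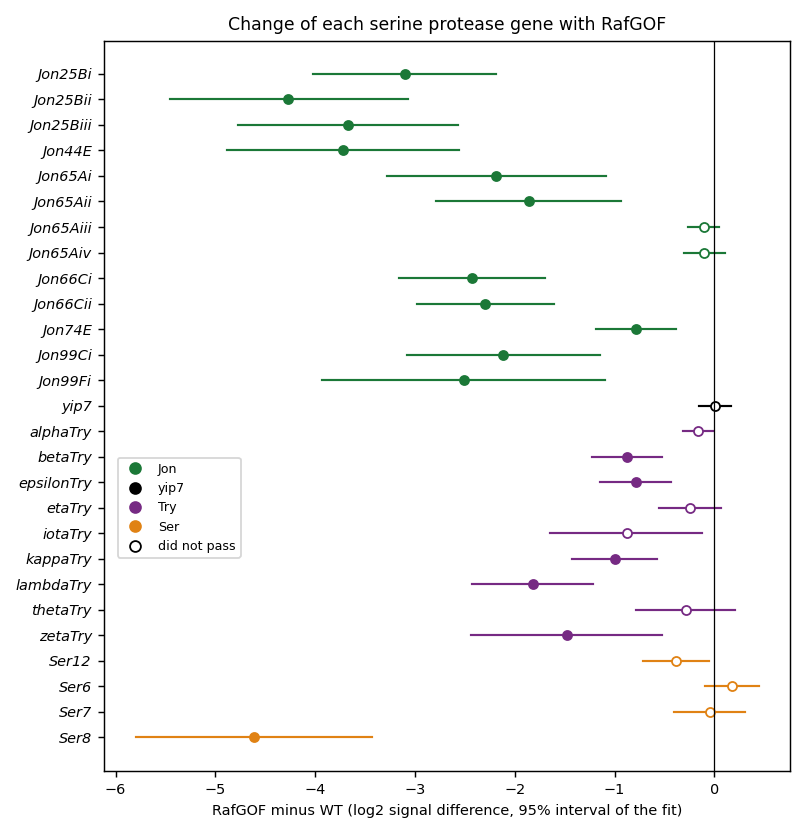
Difference RafGOF minus WT (horizontal axis, log2 signal) for each gene (vertical axis), with the 95% interval of the fit as a line, coloured by gene family. Filled points passed at an adjusted p under 0.05. The 17 filled points are all left of 0, from -0.79 to -4.61, and the open points lie between -0.88 and 0.18.

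The trypsins form a cluster of 9 measured genes, in the order lambdaTry, kappaTry, zetaTry, etaTry, thetaTry, alphaTry, epsilonTry, betaTry and, after 5 other genes, iotaTry. gammaTry and deltaTry are among those 5, and whether any probe set shown here also reads these close relatives was not tested. Within it the first 3 genes and the pair epsilonTry and betaTry fell, and the 3 genes between them did not pass. lambdaTry read 13.45, 13.42, 13.32 and 13.17 on wild-type arrays 1 to 4 and 12.35, 11.38, 11.66 and 10.67 on RafGOF arrays 1 to 4, a change of -1.82 ± 0.284 (log2, SE, adjusted p = 0.000255). zetaTry read 11.38, 11.55, 11.44 and 11.51 on wild-type arrays 1 to 4 and 11.05, 10.30, 10.11 and 8.50 on RafGOF arrays 1 to 4, a change of -1.48 ± 0.453 (log2, SE, adjusted p = 0.0308). kappaTry read 12.58, 12.50, 12.41 and 12.30 on wild-type arrays 1 to 4 and 12.06, 11.02, 11.45 and 11.28 on RafGOF arrays 1 to 4, a change of -1.0 ± 0.202 (log2, SE, adjusted p = 0.00219). Each of these genes had RafGOF arrays wholly below wild type, and array 1 of RafGOF was the nearest to wild type in all of them. The call on zetaTry depended on single arrays: it was lost without any one of the 4 wild-type arrays or RafGOF arrays 3 and 4, with adjusted p up to 0.0871.

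betaTry read 14.68, 14.70, 14.73 and 14.76 on wild-type arrays 1 to 4 and 14.34, 13.91, 13.93 and 13.19 on RafGOF arrays 1 to 4, a change of -0.88 ± 0.168 (log2, SE, adjusted p = 0.00145). epsilonTry read 14.37, 14.42, 14.39 and 14.24 on wild-type arrays 1 to 4 and 14.02, 13.66, 13.54 and 13.06 on RafGOF arrays 1 to 4, a change of -0.79 ± 0.168 (log2, SE, adjusted p = 0.00309). Both trypsins kept the groups apart and spread more in RafGOF than in wild type, with array 4 lowest. alphaTry, which lies next to epsilonTry, was at -0.16 (adjusted p = 0.135) and did not pass, although its RafGOF arrays were all below its wild-type arrays. It ran from 14.38 to 14.69 over the 16 arrays. The differences of etaTry (-0.24, adjusted p = 0.309) and thetaTry (-0.28, adjusted p = 0.482) did not pass, and their groups overlapped. Over the 16 arrays etaTry ran from 10.77 to 11.65 and thetaTry from 12.50 to 13.69. iotaTry was at -0.88 (adjusted p = 0.108) and passed with the replicate block only (adjusted p = 0.0242). It ran from 9.48 to 11.62 over the 16 arrays. With the block 19 of the 27 genes were lower in all, iotaTry and Ser12 being the 2 added, against 15% of all genes. The interval of etaTry, -0.55 to 0.07, did not reach a 2-fold fall.

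The 3 Jon25B genes, neighbours in the genome, all fell strongly. Jon25Bii read 13.19, 13.38, 13.81 and 13.05 on wild-type arrays 1 to 4 and 10.68, 7.98, 9.10 and 8.60 on RafGOF arrays 1 to 4, a change of -4.27 ± 0.561 (log2, SE, adjusted p = 6.56e-05). Jon25Biii read 14.29, 14.28, 14.38 and 14.47 on wild-type arrays 1 to 4 and 12.24, 10.63, 10.76 and 9.11 on RafGOF arrays 1 to 4, a change of -3.67 ± 0.517 (log2, SE, adjusted p = 0.000114). Jon25Bi read 13.00, 12.76, 13.54 and 12.90 on wild-type arrays 1 to 4 and 11.12, 9.02, 9.67 and 9.96 on RafGOF arrays 1 to 4, a change of -3.10 ± 0.43 (log2, SE, adjusted p = 0.000101). In each of the 3 genes every RafGOF array lay below every wild-type array. Jon25Biii had a wild-type mean of 14.35, which was 0.37 below the array top, and a RafGOF mean of 10.68. Its signal was 12.7-fold lower, and where the wild-type signal was limited by the array, the fall of the transcript would be larger than this.

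Jon44E, a Jonah gene with no other member beside it, also fell. Jon44E read 12.59, 12.67, 12.78 and 12.73 on wild-type arrays 1 to 4 and 10.47, 8.61, 8.85 and 7.98 on RafGOF arrays 1 to 4, a change of -3.72 ± 0.546 (log2, SE, adjusted p = 0.000159). Its wild-type arrays lay close together, while the RafGOF arrays spread widely and stayed below them. The Jon66C pair also fell together, from lower wild-type signals. Jon66Ci read 10.49, 10.23, 11.08 and 11.26 on wild-type arrays 1 to 4 and 9.42, 7.72, 7.94 and 8.25 on RafGOF arrays 1 to 4, a change of -2.43 ± 0.344 (log2, SE, adjusted p = 0.000121). Jon66Cii read 9.79, 8.65, 9.91 and 10.44 on wild-type arrays 1 to 4 and 7.75, 7.04, 7.13 and 7.69 on RafGOF arrays 1 to 4, a change of -2.30 ± 0.324 (log2, SE, adjusted p = 0.000114). Neither gene had overlapping groups, although array 2 of wild type was low in Jon66Cii.

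Jon99Ci and Jon99Fi, which are not next to each other, fell as well. Jon99Ci read 12.97, 12.70, 13.78 and 13.65 on wild-type arrays 1 to 4 and 12.46, 10.54, 11.15 and 10.49 on RafGOF arrays 1 to 4, a change of -2.12 ± 0.454 (log2, SE, adjusted p = 0.00323). Jon99Fi read 13.36, 13.60, 13.45 and 13.77 on wild-type arrays 1 to 4 and 12.44, 11.31, 11.14 and 9.25 on RafGOF arrays 1 to 4, a change of -2.51 ± 0.666 (log2, SE, adjusted p = 0.0133). The groups were apart in both, and array 1 of RafGOF came closest to wild type in both. Their close relatives Jon99Cii, Jon99Ciii and Jon99Fii were not analysed here, and whether these probe sets also read them was not tested. Jon74E fell by less. Jon74E read 14.53, 14.36, 14.59 and 14.43 on wild-type arrays 1 to 4 and 14.20, 13.80, 13.55 and 13.22 on RafGOF arrays 1 to 4, a change of -0.79 ± 0.19 (log2, SE, adjusted p = 0.0073), with a wild-type mean 0.24 below the array top.

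The yip7 and Jon65A genes lie in 1 cluster and split into genes that fell and genes that did not pass. In gene order these are yip7, Jon65Aiv, Jon65Aiii, Jon65Aii and Jon65Ai, with 2 other genes after yip7 and none between the rest. At one end, Jon65Ai and Jon65Aii fell. Jon65Ai read 13.28, 13.16, 13.52 and 13.45 on wild-type arrays 1 to 4 and 12.47, 10.37, 11.13 and 10.69 on RafGOF arrays 1 to 4, a change of -2.19 ± 0.514 (log2, SE, adjusted p = 0.00609). Jon65Aii read 13.42, 13.26, 13.78 and 13.50 on wild-type arrays 1 to 4 and 13.02, 11.28, 11.85 and 10.37 on RafGOF arrays 1 to 4, a change of -1.86 ± 0.434 (log2, SE, adjusted p = 0.00577). No RafGOF array reached wild type in either gene, and array 1 was the nearest in both. At the other end, Jon65Aiii ran from 14.34 to 14.63 over all 16 arrays, Jon65Aiv from 14.24 to 14.65 and yip7 from 14.33 to 14.59. Their changes were -0.10 (95% interval -0.26 to 0.05), -0.10 (-0.30 to 0.11) and 0.01 (-0.15 to 0.17), and none passed. These 3 genes sat within 0.27 of the array top in wild type, so their narrow intervals describe the signal and not necessarily the transcript.

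**Figure D3:**
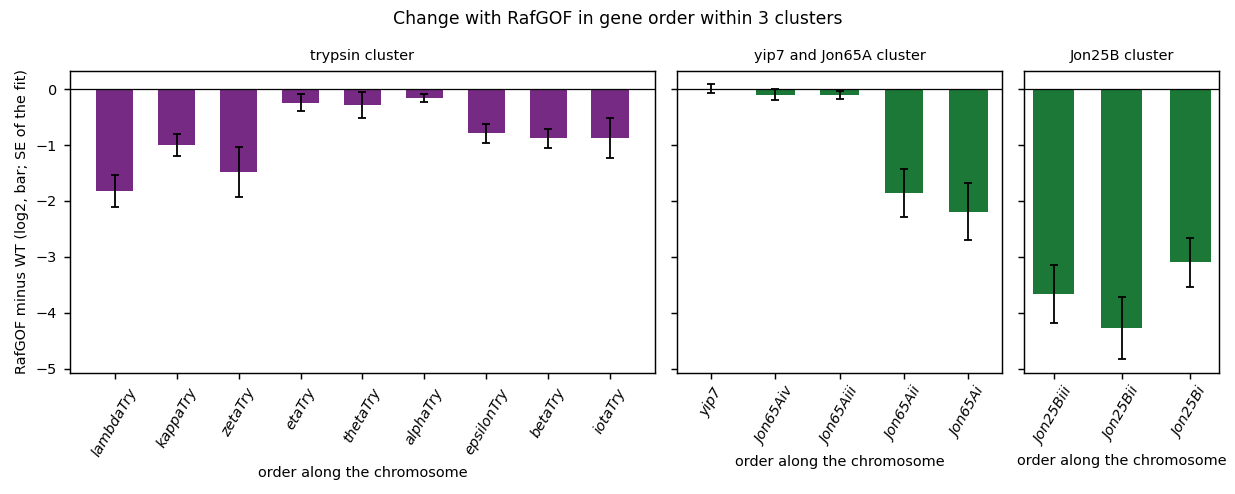
Change RafGOF minus WT (vertical axis, log2 signal; bars with the SE of the fit) of genes in their order along the chromosome in the RefSeq Release 6 assembly (horizontal axis), for the trypsin, yip7 and Jon65A, and Jon25B clusters; distances are not drawn to scale. All 3 Jon25B bars are long, while the other clusters hold both short and long bars.

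Ser8, a trypsin-like serine protease gene, had the largest fall of the family. Ser8 read 11.23, 11.08, 11.23 and 10.72 on wild-type arrays 1 to 4 and 7.85, 6.22, 6.48 and 5.25 on RafGOF arrays 1 to 4. The groups did not overlap, and RafGOF array 4 was below the median of all probe sets on that array, 5.58. The change was -4.61 ± 0.556 (log2, SE, adjusted p = 3.19e-05), a 24.5-fold lower signal. The other Ser genes did not pass. Ser6 kept a clear signal of 10.61 ± 0.115 (SD, n = 4) in wild type, against 10.78 ± 0.177 (SD, n = 4) with RafGOF, and ran from 10.20 to 10.99 over the 16 arrays, with a difference of 0.18 (adjusted p = 0.418). Ser12 was at -0.38 (adjusted p = 0.111, 0.00591 with the replicate number as a block), which passed with the block only. Ser7 was at -0.04 (adjusted p = 0.913). Both Ser7 and Ser12 read close to the array medians in every group, and how far such a signal limits a visible fall was not tested.

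Arrays of RafGOF differed from each other in most of the family at once, though Ser6 and Ser7 were highest on array 4. The median signal of the 27 genes was 13.19, 13.16, 13.45 and 13.17 on wild-type arrays 1 to 4 but 12.24, 10.77, 11.14 and 10.49 on RafGOF arrays 1 to 4. Within RafGOF, array 1 was the highest for 24 of the 27 genes, and array 4 was the lowest for 18 and array 2 for 9. RafGOF NotchDN repeated part of this, with medians of 12.58, 11.06, 11.50 and 11.60, and array 1 highest for 24 genes. In RafGOF NotchIC the medians were 11.28, 11.42, 10.88 and 11.60, and array 3 was lowest for 21 genes. The median SD of the 27 genes within a group was 0.125 in wild type, 0.506 in RafGOF, 0.392 in RafGOF NotchDN and 0.394 in RafGOF NotchIC. Over all genes it was 0.175, 0.206, 0.196 and 0.184, and over genes with a mean of log2 6 or above 0.207, 0.255, 0.256 and 0.213. In wild type 8 of the 27 genes sat by the array top, which limits their spread. Array medians over all probe sets were 5.68, 5.49, 5.56 and 5.58 on RafGOF arrays 1 to 4, a far smaller spread. There too array 1 was the highest, while array 2 and not array 4 was the lowest. In RafGOF NotchDN array 1, at 5.70, was again the highest, and in RafGOF NotchIC array 3, at 5.48, the lowest. Whether the shifts of the family are tied to these medians was not tested. Without RafGOF arrays 1 and 4 together, a check chosen after seeing the data, 18 of the 27 genes were lower than in wild type. The share of all genes lower in that fit is not given here, so the 18 cannot be set against it.

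**Figure D4:**
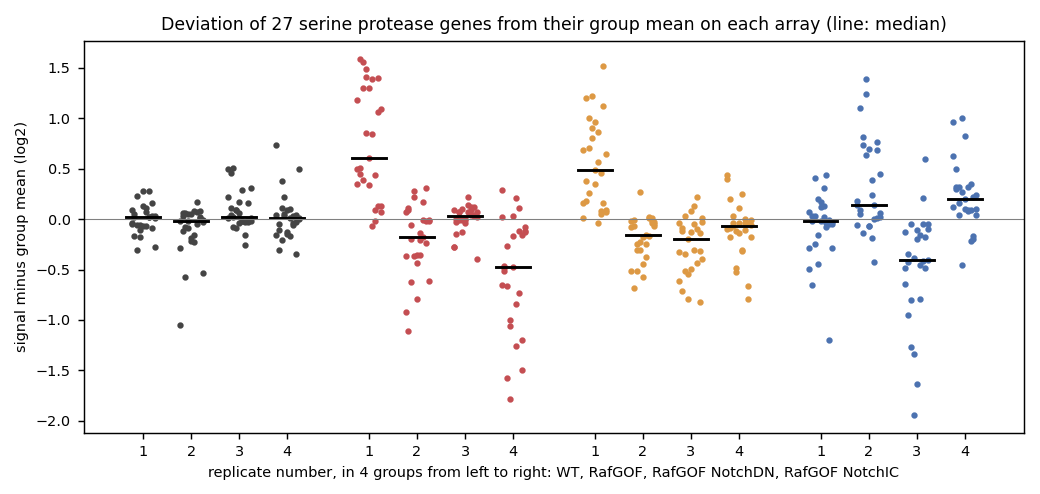
Signal of each of the 27 genes minus its group mean (vertical axis, log2) on each array (horizontal axis, replicate number within the 4 groups), with the median as a line. Most genes stay near 0 in wild type, while some lie further out, such as Jon66Cii at -1.052 on array 2 and 0.739 on array 4. The genes lie mostly above 0 on array 1 of RafGOF and of RafGOF NotchDN. They lie mostly below 0 on array 4 of RafGOF and array 3 of RafGOF NotchIC.

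RafGOF NotchDN was compared with RafGOF to ask how proteases differed when Notch was blocked. Of the 27 genes, Jon25Biii and epsilonTry rose and 0 fell by limma (1 lower at an unadjusted p under 0.05), while 0.818% of all genes were higher and 0.551% lower. Median change was 0.37 in the family and 0.00 over all genes. Of the 27 differences 20 were above 0, against 5952 of all 11982 genes. Most of the family shifted together between arrays, so these signs are not independent of each other. With the replicate number as a block, betaTry rose too (adjusted p = 0.0191; 0.0537 without it) and Ser6 fell (adjusted p = 0.00759; 0.181 without it), against 2.14% and 3.20% of all genes.

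Jon25Biii read 14.08, 13.07, 13.03 and 13.31 on RafGOF NotchDN arrays 1 to 4, all above its 4 RafGOF arrays. The change was 2.69 ± 0.517 (log2, SE, adjusted p = 0.0181), a 6.45-fold higher signal. Compared with wild type, it was at -0.98 (adjusted p = 0.24), which did not pass, although all 4 arrays were below wild type. Its neighbours did not pass: Jon25Bii was at 0.59 (95% interval -0.60 to 1.78) and Jon25Bi at 0.41 (-0.50 to 1.32), against 1.59 to 3.79 for Jon25Biii. The difference between the neighbours was not tested. The call on Jon25Biii was lost without RafGOF array 3 (adjusted p = 0.0571).

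epsilonTry read 14.55, 14.36, 14.28 and 14.28 with NotchDN, all above RafGOF, a change of 0.80 ± 0.168 (log2, SE, adjusted p = 0.0305). Its mean of 14.37 was at the wild-type mean of 14.36, with an interval of -0.34 to 0.37 for the difference. betaTry, the adjacent trypsin, read 14.72, 14.55, 14.52 and 14.47 with NotchDN, a change of 0.72 ± 0.168 (log2, SE, adjusted p = 0.0537) that missed the threshold. The difference of betaTry from wild type was -0.15 (-0.51 to 0.20). In both trypsins the 4 NotchDN arrays stood above the 4 RafGOF arrays, as in 4 of the 27 genes against 2.42% of all genes, and both signals lay again by the array top, which limits how far they could read up. The call on epsilonTry was lost when any array of either group but RafGOF array 1 was left out, with adjusted p up to 0.0924.

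Jon99Fi read 13.50, 12.97, 12.15 and 12.17 with NotchDN and was at 1.66 (adjusted p = 0.429), and lambdaTry read 12.87, 11.92, 12.43 and 11.98 and was at 0.78 (adjusted p = 0.33). Neither passed, and RafGOF array 1 overlapped the NotchDN arrays in both. Ser6, at -0.42 (adjusted p = 0.181), read 10.32, 10.20, 10.32 and 10.61 against 10.71, 10.58, 10.86 and 10.99 in RafGOF. Ser8 stayed low, with 8.72, 7.17, 6.39 and 6.55, a difference of 0.76 (adjusted p = 0.886).

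RafGOF NotchIC was compared with RafGOF to ask how they differed with active Notch. Of the 27 genes Jon25Biii rose and 0 fell by limma (1 lower at an unadjusted p under 0.05), with 1.40% of all genes higher and 1.61% lower. The median change of the family was 0.03, and 14 differences were above 0 and 13 below, against 5582 and 6400 of all 11982 genes. Jon25Biii read 13.25, 13.66, 11.57 and 12.88 on arrays 1 to 4, a change of 2.16 ± 0.517 (log2, SE, adjusted p = 0.04). Array 3, at 11.57, lay below RafGOF array 1, so the groups overlapped. Leaving out any one of RafGOF arrays 2, 3 and 4 or RafGOF NotchIC arrays 1, 2 and 4 lost the call, with adjusted p up to 0.136. Jon25Biii thus read higher with either Notch construct than with RafGOF alone, and both comparisons use the same RafGOF arrays.

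Ser8 and Jon25Bii had the next largest differences with NotchIC, and neither passed. Ser8 read 6.61, 8.57, 8.39 and 7.64, a difference of 1.35 (adjusted p = 0.324). Jon25Bii read 9.66, 11.42, 9.37 and 10.82, a difference of 1.23 (adjusted p = 0.405). At the other end, Jon66Ci was at -0.82 (adjusted p = 0.343) and zetaTry at -0.75 (adjusted p = 0.624). The trypsins as a group had a median of -0.05, and 0 of 9 passed by limma (0 at an unadjusted p under 0.05).

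**Figure D5:**
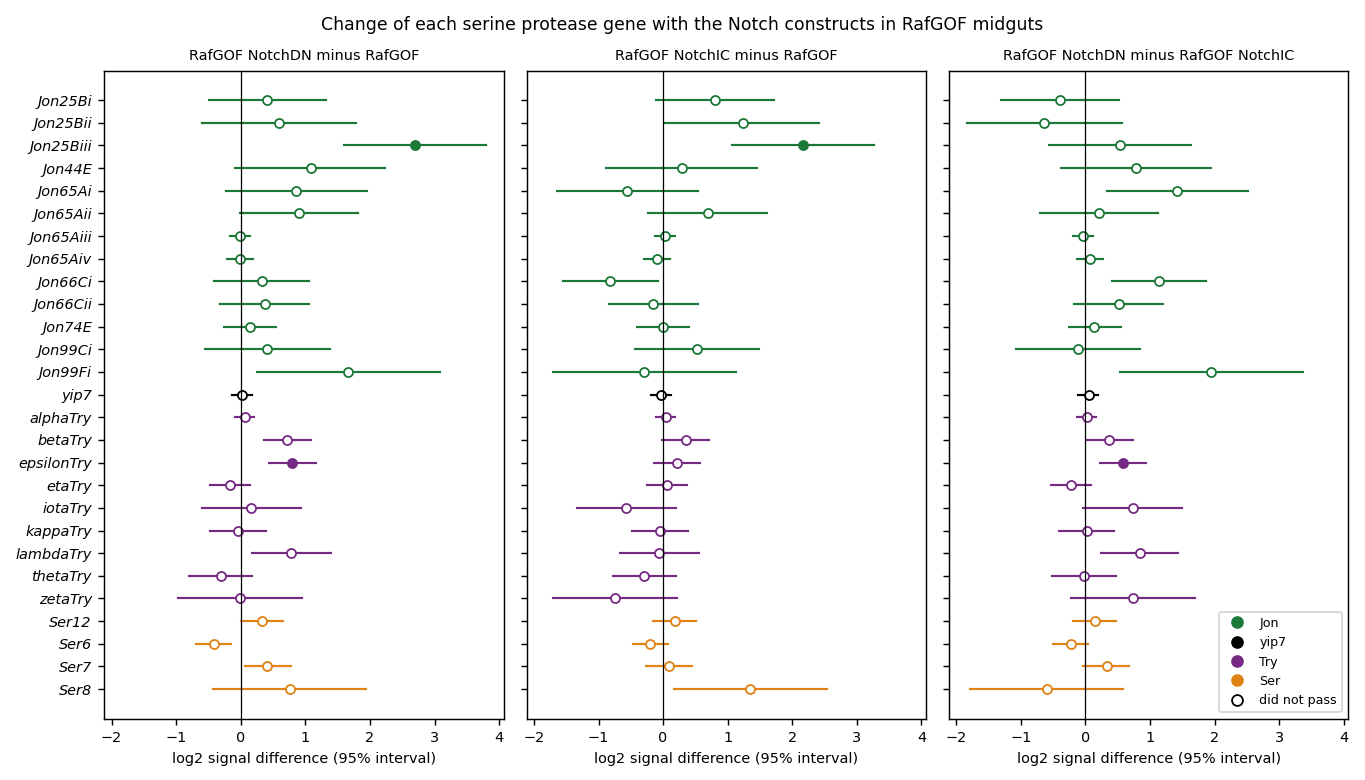
Differences in log2 signal (horizontal axis, with the 95% interval of the fit) of each gene (vertical axis) in the NotchDN against RafGOF (left panel), NotchIC against RafGOF (middle) and NotchDN against NotchIC (right) comparisons; filled points passed. Jon25Biii is filled in the left and middle panels and epsilonTry in the left and right, while the intervals of most other genes include 0.

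RafGOF NotchDN and RafGOF NotchIC were then compared directly. epsilonTry was higher with NotchDN, and no other gene of the 27 passed by limma (6 higher and 0 lower at an unadjusted p under 0.05). Among all genes 6.09% were higher and 5.47% lower, so 1 of 27, or 3.70%, was below the share over all genes. epsilonTry read 13.77, 13.83, 13.44 and 14.10 with NotchIC, all below its NotchDN arrays, a difference of 0.58 ± 0.168 (log2, SE, adjusted p = 0.0412). It lost the call without any array of these groups but RafGOF NotchIC array 4, with adjusted p up to 0.142.

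With the replicate number as a block 5 genes were higher with NotchDN and 0 lower, against 10.6% and 13.8% of all genes. Besides epsilonTry (adjusted p = 0.0181) these were lambdaTry, Jon66Ci, Jon99Fi and Jon65Ai. lambdaTry read 11.59, 11.70, 11.00 and 11.54 with NotchIC and was 0.84 higher with NotchDN (adjusted p = 0.0187 with the block, 0.086 without). Jon66Ci read 9.30, 8.59, 8.27 and 8.48 with NotchDN and 7.23, 7.97, 7.11 and 7.76 with NotchIC, a difference of 1.14 (0.0254 with the block, 0.0514 without). Jon66Ci and lambdaTry had no overlap between the 2 groups, as did 6 of the 27 genes in all against 8.01% of all genes.

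Jon99Fi read 10.30, 12.13, 8.81 and 11.75 with NotchIC, a difference of 1.95 (0.0404 with the block, 0.0898 without). Jon65Ai read 12.99, 11.45, 11.54 and 12.14 with NotchDN and 10.73, 11.30, 8.97 and 11.44 with NotchIC, a difference of 1.42 (0.0421 with the block, 0.113 without). In both genes array 3 of RafGOF NotchIC was the lowest of its group, and in Jon99Fi array 1 was low as well. Jon65Aii, next to Jon65Ai, was at 0.21 (adjusted p = 0.855), and Jon66Cii, next to Jon66Ci, at 0.52 (adjusted p = 0.431), and neither passed.

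Against wild type, RafGOF NotchDN had 11 of the 27 genes lower and 0 higher (1 higher at an unadjusted p under 0.05), and 12.1% of all genes were lower and 14.6% higher. All 4 arrays lay below wild type in 14 of the 27, against 12.8% of all genes. Ser8 (-3.86), Jon25Bii (-3.68), Jon25Bi (-2.69) and Jon44E (-2.64) had the largest falls. The count rose to 15 with the replicate block, with Jon65Ai, Ser6, etaTry and thetaTry added, and 17.4% of all genes were lower in that fit. RafGOF NotchIC had 15 lower and 0 higher than wild type (0 higher at an unadjusted p under 0.05), and 6.77% of all genes were lower and 9.98% higher. All 4 arrays lay below wild type in 20 of the 27, against 8.78% of all genes. There Jon44E (-3.43), Ser8 (-3.26), Jon66Ci (-3.24) and Jon25Bii (-3.04) led. iotaTry, which did not pass in RafGOF, was at -1.45 (adjusted p = 0.0139) with NotchIC, and at -0.72 (adjusted p = 0.207) with NotchDN. Its call with NotchIC was lost without RafGOF NotchIC array 3 (adjusted p = 0.0543). With NotchDN the calls on zetaTry, Jon74E and lambdaTry were lost in 6, 5 and 1 of 8 fits that left out 1 array (adjusted p up to 0.095, 0.0709 and 0.05), lambdaTry without RafGOF NotchDN array 4. With NotchIC those on epsilonTry and Jon99Ci were lost in 6 and 4 of 8 (up to 0.13 and 0.116).

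Several genes were lower than wild type in all 3 Raf groups, in comparisons that share the wild-type arrays. Besides the 4 described here, these were Jon25Bi, Jon25Bii, Jon44E, Jon66Ci, Jon66Cii, Ser8 and lambdaTry. kappaTry had means of 12.45 in wild type, 11.45 in RafGOF, 11.42 with NotchDN and 11.40 with NotchIC, so it was lower in all 3 Raf groups. zetaTry had means of 11.47, 9.99, 9.97 and 9.24, and was lower in all 3 as well. Jon74E, at 14.48, 13.69, 13.83 and 13.69, and Jon99Ci, at 13.27, 11.16, 11.57 and 11.69, were also lower in all 3. In all 4 of these genes no difference among the Raf groups passed. How large a share of all genes was lower in all 3 Raf groups is not given here, so the overlap cannot be read as particular to the family.

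Other gene lists of the gut were set beside the family, with their own counts in RafGOF minus wild type, to be read against the 10.1% of all genes that were lower and the 14.9% that were higher. Of 29 digestive enzyme genes for carbohydrates, lipids and bacterial walls, 21 fell and 2 rose, with a median of -1.46. The most changed were LManIII (-6.05), a lysosomal-type alpha-mannosidase gene, and tobi (-4.18), an alpha-glucosidase gene. Of 20 other peptidases of the gut surface and lysosome, 4 fell and 0 rose by limma (6 in either direction at an unadjusted p under 0.05; median -0.15), namely the neprilysin-like Nep1 (-2.13) and Nep3 (-0.68) and the angiotensin-converting-enzyme-like Ance (-1.15) and Acer (-0.68); Nep3 and Acer were picked after their values were seen. Of 23 other named serine proteases 5 fell and 0 rose (10 in either direction at an unadjusted p under 0.05), led by ome (-2.26), a dipeptidyl peptidase gene, and Phae1 (-1.33). Among 28 serpins, which inhibit serine proteases, 3 fell and 0 rose (7 in either direction unadjusted), led by Spn42Da (-1.24) and Spn42Dd (-0.59), a share near that of all genes. Of 27 regulators tied to digestive enzyme genes or gut regions, 3 rose and 5 fell, with exex (2.20) and ct (-2.18) the most changed, and the share that rose was below that of all genes. Picked after their values were seen, GATAe, a GATA factor of the midgut, was at -0.06 (adjusted p = 0.932) and sug, a sugar-responsive repressor, at -0.12 (adjusted p = 0.90).

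The enterocyte list (8 genes measured) had members that rose and members that fell. Its mean signal ran from 11.43 to 11.80 over the wild-type arrays and from 11.64 to 11.91 over RafGOF, and 2 genes rose and 2 fell. The lipase gene mag fell (-1.69), while the septate junction genes Ssk (0.89) and cora (0.89) rose. The progenitor list (8 genes) had array means of 6.59 to 6.75 in wild type and 7.30 to 7.74 in RafGOF, with 5 rising, among them the stem cell factor genes esg (2.49) and Sox100B (2.27), and 1 falling. The enteroendocrine list (8 genes) had 8.02 to 8.39 in wild type and 7.34 to 7.99 in RafGOF, with 3 falling, the peptide hormone genes CCHa2 (-1.30) and AstC (-0.88) among them. Lists of tissue attached to the midgut had lower means too. Visceral muscle (12 genes) had 10.06 to 10.36 in wild type and 9.48 to 9.97 in RafGOF, with 8 falling and 1 rising, and Malpighian tubule (5 genes) had 8.95 to 9.98 and 8.28 to 8.77, with 4 falling. In these 5 lists only the progenitor list held genes with a mean under log2 5, 1 in wild type and 2 in RafGOF. The part of these shifts in the protease result was not tested. Of the fat body, hemocyte and trachea lists 1 of 6, 1 of 13 and 2 of 7 genes fell and 0 rose, of the ovary list 1 of 19 rose, and of 6 salivary gland and crop genes 0 passed by limma (1 at an unadjusted p under 0.05).

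With the Notch constructs the other digestive enzymes and the proteases were counted side by side. In NotchIC minus RafGOF 5 of the 29 digestive enzymes were higher (median 0.47) and 1 of the 27 proteases (median 0.03), against 1.40% of all genes. In NotchDN minus RafGOF 0 of the 29 were higher by limma (3 in either direction at an unadjusted p under 0.05; median 0.04) and 2 of the 27 proteases (median 0.37), against 0.818% of all genes. Between NotchDN and NotchIC, 6 of the 29 were lower with NotchDN and 1 higher (median -0.53), while 1 of the 27 proteases was higher with NotchDN (median 0.15). Among all genes 5.47% were lower and 6.09% higher there, so by this call the protease share was below that of all genes. With the replicate block 5 of the 27 were higher with NotchDN and 0 lower, against 10.6% and 13.8% of all genes. Whether the 2 lists differ was not tested. The enterocyte mean was 11.40 to 11.65 with NotchDN and 11.68 to 11.94 with NotchIC.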

How the data were processed

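RNA of female midguts, extracted with Trizol and labelled with a 3' in vitro transcription kit per the labels, was measured on 16 Affymetrix Drosophila Genome 2.0 arrays. The authors deposited RMA signals on the log2 scale, per the submitters' processing notes. RMA makes the arrays' distributions alike, so a change shared by most genes would not show. Of 18952 probe sets, 183 controls were set aside and 18769 tested. By the platform annotation 13647 had 1 gene symbol, 402 several and 4720 none. A gene was represented by its brightest probe set over the 16 arrays. Gene order came from RefSeq (Release 6), where all 27 genes matched by gene ID.

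limma 3.58.1 in R 4.3.3 was fitted to all 16 arrays with a mean for each group (12 residual degrees of freedom), eBayes and two-sided tests, with Benjamini-Hochberg adjustment over the 18769 probe sets. A gene passed at an adjusted p under 0.05, and "rose", "fell", "higher" and "lower" refer to this call. SEs and 95% intervals come from the fit, which was tested on simulated data. The 27 genes and the 15 other lists were chosen with earlier results of these data known. The lists share mag, nub and srp. Every member may be named, with array values where it passed in a main comparison and its range otherwise, and the 2 most changed genes that passed in each list.

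Deviations of same-numbered arrays from their group means correlated at 0.104 to 0.785 in 5 of the 6 comparisons, each above 0.1, so the numbers were taken to pair the arrays. For RafGOF NotchIC and WT the lowest was 0.0489, and they were not. Between arrays numbered 2 the correlations were 0.528 to 0.726. Correlations between arrays of different numbers were not set beside these. What the numbers mark is not stated, and the main fit and its calls did not use the pairing. With the replicate block 37.5% of all genes passed in RafGOF minus wild type, against 25% in the main fit. In RafGOF NotchDN minus RafGOF these shares were 5.34% and 1.37%. Alternatives were the replicate block, the 8 arrays compared, normalisation, a filter on dim probe sets, the variance model and leaving out arrays.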

Additional observations from a re-analysis of the deposited data

Results flagged for a closer look

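In 108 groups of 4 arrays (27 genes in 4 groups), 2 had an array that stood apart by Dixon's criterion for 4 values, and chance gives about 1 in 20. Jon65Aii read 13.39 on RafGOF NotchDN array 1 and 12.22 to 12.28 on the other 3, a gap of 0.949 of the group's range. yip7 read 14.42 on wild-type array 2 and 14.46 on the other 3, a gap of 0.85 of a range that is small in itself.

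epsilonTry differed between the effects of the 2 Notch constructs in RafGOF midguts. Its difference with NotchDN exceeded that with NotchIC by 0.58 (log2; adjusted p = 0.0412 by limma), and all 4 NotchDN arrays were above all 4 NotchIC arrays. This is the direct comparison of the 2 Notch groups already given, not a further test. The value without single arrays ran from 0.47 to 0.69, with adjusted p up to 0.142, and the call was lost in 7 of 8 such fits.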

How the results depend on the processing

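The number of genes lower than wild type was 17 for RafGOF and ran from 16 to 19 when single arrays were left out and over all other settings. For RafGOF NotchDN it was 11, with 8 to 15 both without single arrays and over the other settings, and for RafGOF NotchIC it was 15, with 12 to 16 and 14 to 19. NotchDN over RafGOF gave 2 and 0 to 3 without single arrays, NotchIC over RafGOF 1 and 0 to 1, and NotchDN over NotchIC 1 and 0 to 2. With the replicate block, NotchDN over RafGOF had 1 gene lower (0 without it) and NotchDN over NotchIC 5 higher. The block moved the count against wild type for NotchIC, where the numbers do not pair, from 15 to 18. It also moved the share of all genes lower there from 6.77% to 11.7%. No gene of the 27 lost a call with the block. With only the 8 arrays compared the counts higher were 0, 0 and 2 in the order above. NotchDN over NotchIC was at 2 with only probe sets at a mean of log2 6 or above, and NotchIC over RafGOF at 0 with a trended and robust variance model. Without the 4 arrays numbered 2, a choice made after seeing the data that leaves 3 arrays a group, all 3 counts were 0 by limma. Because each gene has 1 probe set, the alternatives on the choice of probe set changed nothing. No single gene that passed changed sign in any setting. Of 27 genes in 6 comparisons without single arrays, 50 calls were lost and 11 gained in all, and the cause was not tested.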

Other observations

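The probe set shared by SPH93, a serine protease homologue gene, and RSG7 ran from 4.18 to 6.97 over the 16 arrays. It was at 0.60 in RafGOF minus wild type (adjusted p = 0.536), and its 2 genes cannot be told apart.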
